A study of Mus musculus with 2 samples.

Results

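Glucose handling in the liver is split between enzymes and transporters that hepatocytes use almost alone and related forms that most other cells use. The 8 genes described here were chosen by name as the paired forms of that split. The general forms were Slc2a1, Hk2, Aldoa, Pkm and Ldha. The liver genes were Slc2a2, Pklr and Pck1. These are 8 of 31053 gene rows in the matrix, and each was found. They were followed in hepatocytes according to how much Nras each cell held. Hepatocytes were barcodes in which Alb, Apoa1, Apoa2, Ttr and Fgb together made up at least 1% of the unique molecules (UMIs), which held for 10682 of 13151 barcodes.

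The cells came from livers of 3 BL6 mice that were injected at 6 to 8 weeks of age and collected on day 6. Hydrodynamic tail vein injection (HDTV) pushes plasmid into some hepatocytes, and a transposase plasmid given with it inserts the transgene. 2 mice received NRAS(G12V), an oncogenic form. The remaining mouse served as the control and received NRAS(G12V/D38A), in which an added effector loop change impairs signalling. Both transgenes were driven by the CAGGS promoter, which is active in most cell types, and were joined to the fluorescent protein mVenus through an internal ribosome entry site, so all 3 mice carry a transgene and no uninjected liver was included. mVenus-positive cells were sorted, labelled with 1 antibody hashtag per mouse, pooled and sequenced as 1 library on the 10x Genomics 3′ platform. The deposited table gives hashtag 1 to the D38A mouse and hashtags 2 and 3 to the G12V mice, whereas the methods of the study give hashtag 3 to the D38A mouse. Mice are therefore named by hashtag, and the comparisons across Nras levels use all 3 mice together, so they pool both transgenes.

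In the fed liver, glucose enters hepatocytes through the low-affinity transporter GLUT2 (Slc2a2), and the liver pyruvate kinase (Pklr) closes glycolysis. In fasting the path is run backwards, with phosphoenolpyruvate carboxykinase (Pck1) at the entry to gluconeogenesis. Most other tissues, and many proliferating cells, instead use GLUT1 (Slc2a1), hexokinase 2 (Hk2), aldolase A (Aldoa), the muscle-type pyruvate kinase gene (Pkm) and lactate dehydrogenase A (Ldha). The 3′ reads do not separate the splice forms of Pkm.

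After quality filters and removal of hashtag doublets 8395 hepatocytes remained, of which 3357 held at least 5000 UMIs and 1618 of those were assigned to a single mouse. The 3 mice gave 290, 1226 and 102 cells (hashtags 1, 2 and 3) with medians of 27443, 43233 and 7734 UMIs, so every value for hashtag 3 rests on few molecules. These assignments depend on the calling method, HTODemux. A fixed rule, at least 10 hashtag UMIs with 80% or more from 1 hashtag, gave 714, 416 and 41 cells instead. The values per mouse below use the HTODemux assignments. Cells were placed in 4 bins at the quartiles of Nras in CPM over the 3357 cells. The lowest bin held no Nras UMI, and the upper limits of the second and the third bin were 68.6 and 214. The bins also differed in depth, with medians of 7977, 41629, 20815 and 42589 UMIs from the lowest to the highest. In the summed cells of the highest bin Nras stood at 2187, 2048 and 2996 CPM in hashtags 1, 2 and 3, and mVenus, which was not used for ranking, at 186, 152 and 263 CPM against 3.20, 1.01 and 23.0 in the lowest. Clusters led by markers of other cell types held 4.17% of the 3357 cells, unevenly between the mice. In the lowest bin 70 of 92, 210 of 221 and 21 of 46 cells of hashtags 1, 2 and 3 lay outside these clusters. Values for hashtag 3 are therefore not purely hepatocyte levels.

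In the mouse annotation GENCODE M21 (GRCm38), Slc2a1 lies at chr4:119108711-119137983, Aldoa at chr7:126795234-126800751 on the minus strand, Pkm at chr9:59656368-59679375, Ldha at chr7:46841475-46855627 and Hk2 at chr6:82725025-82774454 on the minus strand. The liver genes Slc2a2, Pklr and Pck1 lie at chr3:28697903-28731359, chr3:89136142-89146784 and chr2:173153048-173159273. Aldoa overlaps Fam57b and Pklr overlaps Hcn3, in both cases on the opposite strand. Promoter sequences were taken from RefSeq (GRCm38.p6), from 250 bases before to 50 bases after each transcript start, and all 8 genes matched.

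The promoters differed in their content of CpG sites, pairs of C and G that are dense at the promoters of broadly expressed genes. Over 32851 promoters of 300 bases the median was 7 CpG sites. The promoters of Slc2a1 and Hk2 held 18 and 25, the first starts listed for Pkm and Ldha 27 and 30, and the 3 starts of Aldoa 0, 24 and 23. The liver genes held fewer, with 2 in Slc2a2, 6 in Pck1, and 3 and 8 at the upstream and downstream starts of Pklr. Some stretches upstream of the starts are printed 5′ to 3′, on the plus strand, to show this contrast. They leave out bases annotated as exons, except in the 30 bases shown for Pkm and Pklr. Capitals mark matches on either strand to the GC box GGGCGG, the core ACGTG, the E-box CACGTG, which contains that core, the AP-1 site TGACTCA, the cyclic AMP response element-like TNACGTCA and the TATA box TATAAA. Of all promoters in the table, 35.7%, 19.6%, 7.15%, 5.202%, 2.93% and 13.6% hold these motifs in that order. The stretches are from Slc2a1 (chr4:119108595-119108710), Pkm (chr9:59656494-59656523), Ldha (chr7:46845654-46845803), Slc2a2 (chr3:28697753-28697902), Pklr (chr3:89136580-89136609) and Pck1 (chr2:173152923-173153047).
Slc2a1: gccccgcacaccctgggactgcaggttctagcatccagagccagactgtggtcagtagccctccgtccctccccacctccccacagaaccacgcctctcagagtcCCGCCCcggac
Pkm: ggattgggcgagGGGCGGggctgcggaggg
Ldha: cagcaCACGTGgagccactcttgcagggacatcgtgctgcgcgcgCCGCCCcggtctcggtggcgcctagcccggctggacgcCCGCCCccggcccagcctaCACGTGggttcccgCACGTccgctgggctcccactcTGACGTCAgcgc
Slc2a2: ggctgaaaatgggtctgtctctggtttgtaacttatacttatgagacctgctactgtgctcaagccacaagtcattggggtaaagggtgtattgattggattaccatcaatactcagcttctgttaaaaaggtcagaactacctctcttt
Pklr: acaaaggcagagTATAAAgcagacccacag
Pck1: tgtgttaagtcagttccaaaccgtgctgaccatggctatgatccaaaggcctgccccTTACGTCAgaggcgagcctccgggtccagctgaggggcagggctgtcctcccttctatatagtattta

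Slc2a2 had no match in the printed stretch and no CpG site there. Ldha had 2 E-boxes and 1 cyclic AMP response element-like match, and Pck1 had such a match at 93 bases before the start. These letters describe the windows only.

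The main comparison asked whether the general and liver forms differ between hepatocytes with the most Nras and those in which no Nras UMI was counted. Cells without a UMI were also sorted as mVenus-positive, and their bin had the lowest median depth. A missing Nras UMI is therefore not proof of absent Nras. Slc2a1 and Pkm rose in the highest Nras bin, and Slc2a2, Pklr and Pck1 fell. Aldoa and Ldha did not pass the test, and Hk2 was too low to be tested. Of the 7 genes tested, 2 were therefore higher and 3 lower. Over all 9620 genes tested 16.9% passed, 6.38% higher and 10.5% lower. The test was edgeR's quasi-likelihood test on UMIs summed per mouse and bin, with the mouse as a block and Benjamini-Hochberg adjustment over all genes tested. Fold changes from it are log2 values with their standard error (SE), and levels are CPM (UMIs of the gene in counts-per-million of all UMIs of the summed cells, Nras and mVenus left out).

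**Figure D1:**
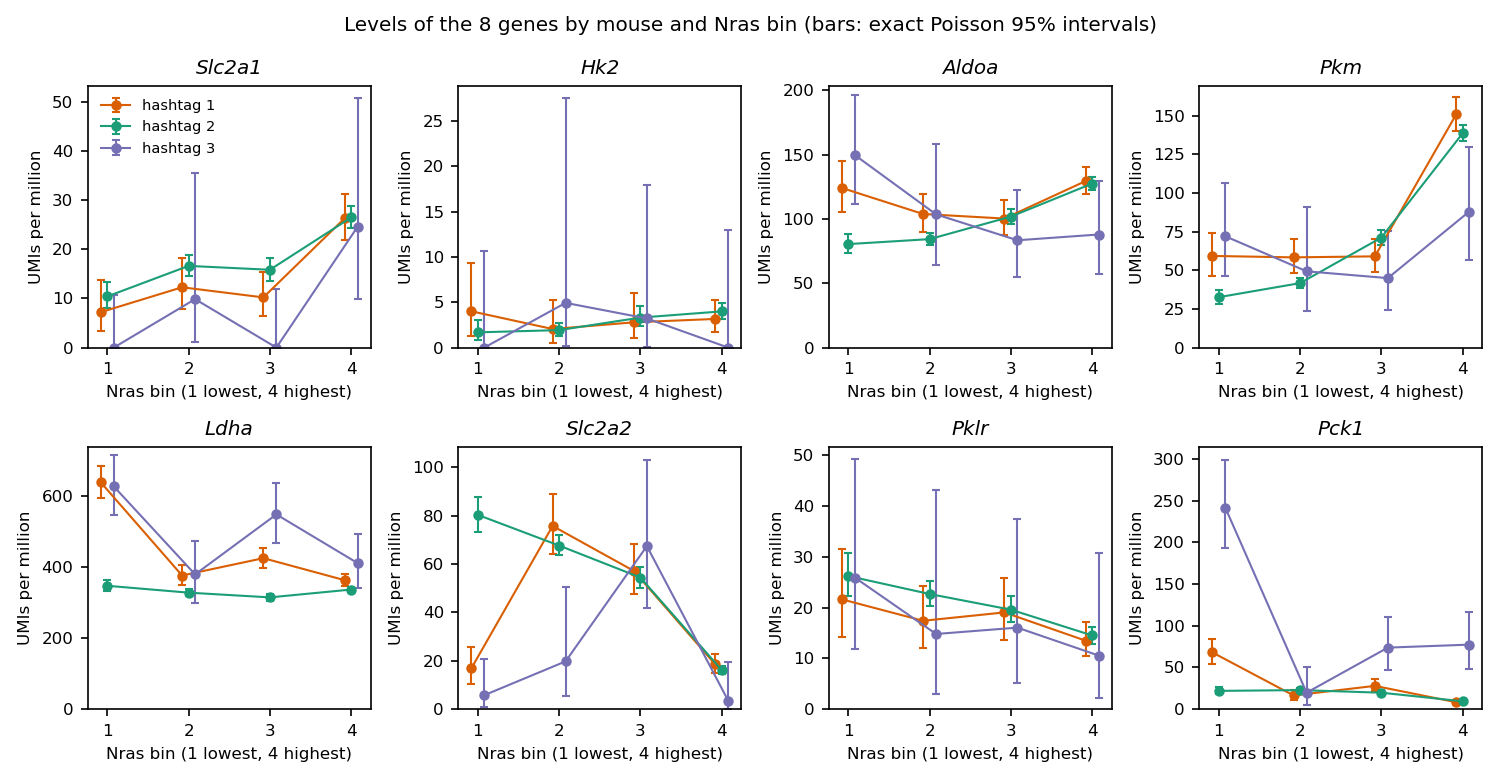
CPM of the 8 genes (vertical axes, separate scale for each gene) in the 4 Nras bins (horizontal axes), with 1 line per mouse and exact Poisson 95% intervals, which cover counting error only. Slc2a1 and Pkm were higher in bin 4 than in bin 1 in all 3 mice, Pklr and Pck1 lower in all 3, and Slc2a2 in hashtag 1 stood at 16.8 in bin 1 and 18.5 in bin 4.

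Slc2a1 encodes GLUT1, the high-affinity transporter of most cells. In hashtag 1 its level was 7.21, 12.3, 10.2 and 26.3 CPM from the lowest to the highest bin. In hashtag 2 it was 10.4, 16.6, 15.8 and 26.5. In hashtag 3 there were 0 UMIs in the lowest bin, 2 in the second, 0 in the third and 7 in the highest, the last equal to 24.6 CPM. The 3 mice thus reached close levels in the highest bin, above each of the other bins of the same mouse. For hashtag 3 the exact Poisson 95% interval reached 10.6 CPM in the lowest bin and ran from 9.90 to 50.7 in the highest, so the intervals overlapped. The fitted change was 1.54 (SE 0.32, adjusted p = 0.0057).

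Pkm encodes the pyruvate kinase of most tissues other than liver. Hashtag 1 held 59.2, 58.3, 59.0 and 151 CPM over the 4 bins. Hashtag 2 held 32.6, 41.7, 71.1 and 139. Hashtag 3 held 71.9, 49.3, 44.9 and 87.9, from 25, 10, 14 and 25 UMIs. In hashtag 1 the lower 3 bins were level and the highest stood apart, whereas in hashtag 2 the level climbed from bin to bin. In hashtag 3 the highest and lowest bins overlapped within their counting intervals. The fitted change was 1.39 (SE 0.25, adjusted p = 0.0027).

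Slc2a2 encodes GLUT2, the main glucose transporter of hepatocytes. In hashtag 2 it went from 80.3 CPM through 67.6 and 54.4 to 16.2. In hashtag 1 it was 16.8, 75.7, 57.1 and 18.5, so the lowest bin was as low as the highest. In hashtag 3 the bins held 2, 4, 21 and 1 UMIs. The highest bin was below the third in all 3 mice, and below the lowest in 2 of 3. The fitted change against the lowest bin was -1.62 (SE 0.50, adjusted p = 0.042), and without hashtag 2 it was 0.18 and did not pass (adjusted p = 0.88). The call was also lost with DESeq2 (-1.24, adjusted p = 0.26), with cells of at least 2000 UMIs in edgeR (-1.42, adjusted p = 0.092) and with quartiles taken within each mouse (-1.60, adjusted p = 0.063). The lowest bin of hashtags 1 and 3 consisted of shallow cells, with medians of 10347 and 7068 UMIs against 29225 in hashtag 2, and the part of depth in this difference is taken up with the depth-matched cells.

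Pklr encodes the liver pyruvate kinase. It was 21.6, 17.4, 19.0 and 13.5 CPM in hashtag 1. Hashtag 2 stood at 26.2, 22.7, 19.6 and 14.5, and hashtag 3 at 25.9, 14.8, 16.0 and 10.5 on 9 UMIs or fewer per bin. The highest bin was the lowest of the 4 in each mouse, although the counting intervals of the highest and lowest bins were separate in hashtag 2 and overlapped in hashtags 1 and 3. The fitted change was -0.92 (SE 0.18, adjusted p = 0.0046).

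Pck1, the committed enzyme of gluconeogenesis from lactate and amino acids, differed in level between the mice. It was 68.1, 16.4, 27.9 and 8.21 in hashtag 1. In hashtag 2 it was 21.8, 22.8, 19.7 and 9.35. In hashtag 3 it was 242, 19.7, 73.8 and 77.4. The highest bin was below the lowest in all 3 mice, but the highest bin of hashtag 3 held more than the lowest bin of the other mice. The fitted change was -2.11 (SE 0.42, adjusted p = 0.0044).

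Ldha, which interconverts pyruvate and lactate, was 639, 376, 425 and 363 CPM in hashtag 1. It was 348, 328, 315 and 337 in hashtag 2 and 627, 380, 549 and 411 in hashtag 3. In hashtag 2 the highest and lowest bins differed by -0.04 on the log2 scale, whereas in hashtags 1 and 3 the lowest bin was above the rest. Its fitted change was -0.53 (SE 0.19, adjusted p = 0.072). It passed as lower with the DESeq2 test (-0.50, adjusted p = 0.040) and with cells of at least 2000 UMIs in edgeR (-0.49, adjusted p = 0.038).

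Aldoa, the aldolase of muscle and most other tissues, gave a fitted change of 0.06 (SE 0.20, adjusted p = 0.90). From the lowest to the highest bin it went from 124 to 130 in the mouse with hashtag 1, from 80.5 to 127 with hashtag 2, and from 150 to 87.9 with hashtag 3. The mice differed in direction. Hk2, the high-affinity hexokinase that most hepatocytes lack, had 5, 10 and 0 UMIs in the lowest bin of hashtags 1, 2 and 3 and 15, 82 and 0 in the highest. In hashtag 2 these counts equal 1.68 and 3.99 CPM.

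These calls depended on single mice. Without hashtag 1 no member passed, and 126 of 10862 genes tested did in all. Without hashtag 2 only Pck1 passed of the members, and 632 of 7399 genes in all. Without hashtag 3 the same 5 members passed, and 1773 of 10887 genes in all. Leaving out hashtag 1 or 3 also leaves the G12V mice alone under the deposited table or the methods, so the calls within G12V mice do depend on the pairing. With no block for the mouse, Pkm alone passed among the members and 397 of 9620 genes in all. With a stricter rule of at least 5% hepatocyte marker UMIs, Pkm was again the only member that passed, among 426 of 8160 genes. With mice assigned by the fixed hashtag rule the same 5 members passed, and 1997 of 10860 genes in all.

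The bins next to each other were compared to see where along the Nras range the levels moved. Between the second and lowest bins, and between the third and the second, edgeR called 0 of 9620 genes (1373 and 95 at an unadjusted p under 0.05), and DESeq2 called 206 and 0, none of them a member. In these steps 2 alternatives called a member: Pck1 was lower in the second than in the lowest bin with no filter on low counts, and Slc2a2 was lower in the third than in the second with cells ranked by mVenus. Between the highest and the third bin 4.09% of genes passed (1.98% higher and 2.11% lower). Among the 7 members tested, Slc2a1 rose by 1.12 (SE 0.28, adjusted p = 0.044) and Pkm by 1.11 (SE 0.24, adjusted p = 0.021). Slc2a2 gave -1.88 (SE 0.50, adjusted p = 0.052) and passed as lower in 10 of 19 alternatives, DESeq2 and the depth-matched cells among them. Pklr and Pck1 gave -0.42 and -1.05 (adjusted p = 0.25 and 0.21). Whether a member's step between the upper bins differs from its step between the lower ones was not tested.

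Because the bins differ in depth, the comparison was repeated in cells of 20000 to 60000 UMIs, with the Nras quartiles taken anew. Hashtag 3 gave fewer than 5 cells to each of these bins and was left out, so this fit holds 2 mice. Matched depth here means this range, which narrowed the depth difference without removing it. From the lowest to the highest bin the medians ran from 34158 to 46300 UMIs in hashtag 1 and from 40735 to 47912 in hashtag 2. The lowest bin reached up to 29.8 Nras CPM, so it also holds cells with Nras UMIs. In the highest against the lowest bin Pkm rose by 1.88 (SE 0.21, adjusted p = 8.7e-06), Slc2a1 by 0.96 (SE 0.21, adjusted p = 0.0038) and Aldoa by 0.46 (SE 0.13, adjusted p = 0.018). Slc2a2 fell by 2.43 (SE 0.17, adjusted p = 2.4e-07) and Pklr by 0.75 (SE 0.20, adjusted p = 0.017). Ldha gave -0.19 (adjusted p = 0.28), Hk2 0.75 (adjusted p = 0.39) and Pck1 -0.52 (SE 0.28, adjusted p = 0.25). All 8 members were tested here, and 3 were higher and 2 lower, beside 17.4% called (8.17% higher and 9.27% lower) over 10666 genes. Compared with the main fit, the Slc2a2 difference was larger, Aldoa passed, and the Pck1 difference was smaller and did not pass. The 2 fits differ in their mice as well as in depth. In the fit of all depths without hashtag 3, Pck1 passed as lower and Aldoa did not pass.

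**Figure D2:**
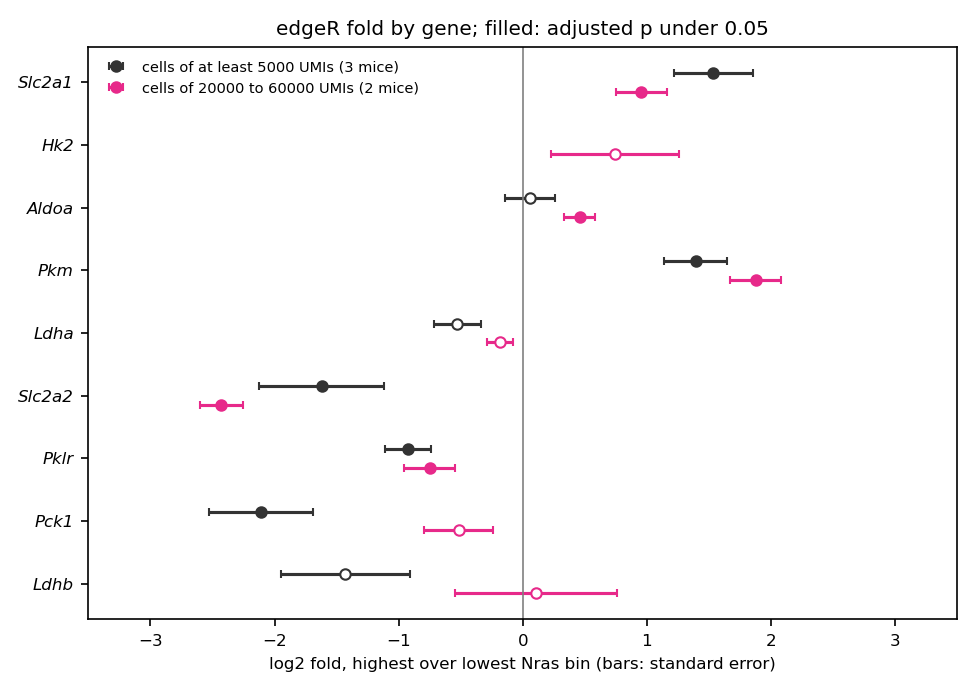
log2 fold change between the highest and lowest Nras bin (horizontal axis, bars are SE) for the 8 members and the partner gene Ldhb, in all cells of at least 5000 UMIs and in cells of 20000 to 60000 UMIs, where filled points passed an adjusted p of 0.05. Pkm and Slc2a1 lie to the right of 0 in both fits and Slc2a2 and Pklr to the left in both. Pck1 lies at -2.11 in the first fit (3 mice) and at -0.52 in the second (2 mice).

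Within the same depth range the cells of all mice were also placed in 5 fixed steps of Nras, chosen after the data were seen. The steps were up to 50, 200, 1000 and 4000 CPM and above 4000, and held 552, 468, 248, 90 and 50 cells. These pooled values have no test, and their intervals (exact Poisson, 95%) cover counting error only. Slc2a2 was 82.0 CPM in the lowest step, then 64.2, 29.7, 6.58, and 0.452 (0.0115 to 2.52, from 1 UMI) in the highest. Pkm was 42.5, 62.3, 97.4, 151 and 206. Both moved at every step, in opposite directions.

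Slc2a1 was 13.1, 16.98, 21.5, 33.1 and 42.98 (34.8 to 52.5). Hk2 was 1.85 in the lowest step, 5.06 in the fourth and 8.14 (4.83 to 12.9, from 18 UMIs) in the highest. Aldoa was 87.8, 103, 115, 149 and 151, with close values in the last steps. Pklr was 23.9, 21.1, 16.0, 11.6 and 11.3 and likewise levelled off. Ldha ranged from 311 to 344 over the 5 steps. Pck1 was 21.8, 20.7, 18.5 and 12.9 in the first 4 steps and 0.452 in the highest, where 1 UMI was found. Its level was thus lowest by far at the top of the Nras range, a span that the quartile bins do not separate.

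**Figure D3:**
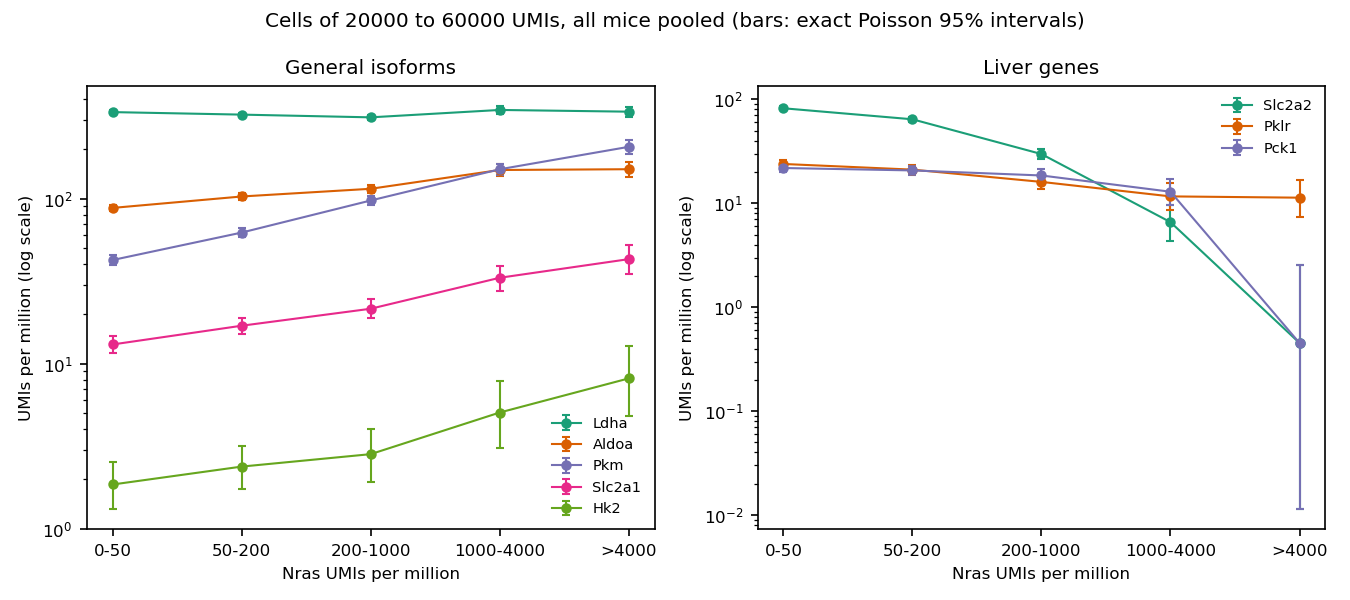
CPM (UMIs of a gene scaled to a fixed total, vertical axes, log scale) of the general forms (left) and of the liver genes (right) over 5 steps of Nras CPM (horizontal axes) in cells of 20000 to 60000 UMIs pooled over mice, with exact Poisson 95% intervals. Ldha is flat, Pkm climbs from 42.5 to 206, and Slc2a2 and Pck1 each end at 1 UMI in 50 cells.

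Both mice with enough such cells showed these courses for Slc2a2 and Pkm. In hashtag 2 Slc2a2 went from 82.5 through 61.0, 30.8 and 3.76 to 0 UMIs in 24 cells, and in hashtag 1 from 65.1 through 58.9, 13.9 and 8.25 to 1 UMI in 9 cells. Pkm went from 36.1 to 206 in hashtag 2 and from 46.0 to 238 in hashtag 1. Pck1 in hashtag 1 was 11.1, 24.8, 24.1 and 22.0 before it reached 0 UMIs in the highest step, and in hashtag 2 it was 25.6, 20.9, 19.6 and 7.53 before 1 UMI. In hashtag 1 those 0 UMIs allow up to 8.70 CPM (exact Poisson 95% interval), which overlaps the 6.08 to 18.6 of its lowest step, so a lower level in the highest step was resolved in hashtag 2 only.

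The share of a pair's UMIs that came from the general form was computed as a description of the 2 genes together. Over all 3357 cells, from the lowest to the highest bin, Slc2a1 made up 12.5%, 18.0%, 20.7% and 62.0% of the UMIs of Slc2a1 and Slc2a2. Pkm made up 60.1%, 66.9%, 78.8% and 90.8% of those of Pkm and Pklr. Ldha made up between 99.2% and 99.6% of those of Ldha and Ldhb, the heart-type lactate dehydrogenase, which was low in these cells and gave a fitted change of -1.43 (SE 0.52, adjusted p = 0.080). In the glucose transporter and pyruvate kinase pairs the share was highest in the highest bin, and both genes of each pair passed the test. In hashtag 1 the Slc2a1 share did not climb bin by bin, with 30% in the lowest, 14.0% in the second and 15.2% in the third bin. In hashtags 1 and 2 the Slc2a1 share in the highest bin was 58.7% and 62.1%, with exact binomial 95% intervals of 51.8 to 65.4% and 58.8 to 65.3%. In hashtag 3 it was 7 of 8 UMIs. The share counts UMIs from the 3′ end and is not a share of protein or of enzyme activity.

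**Figure D4:**
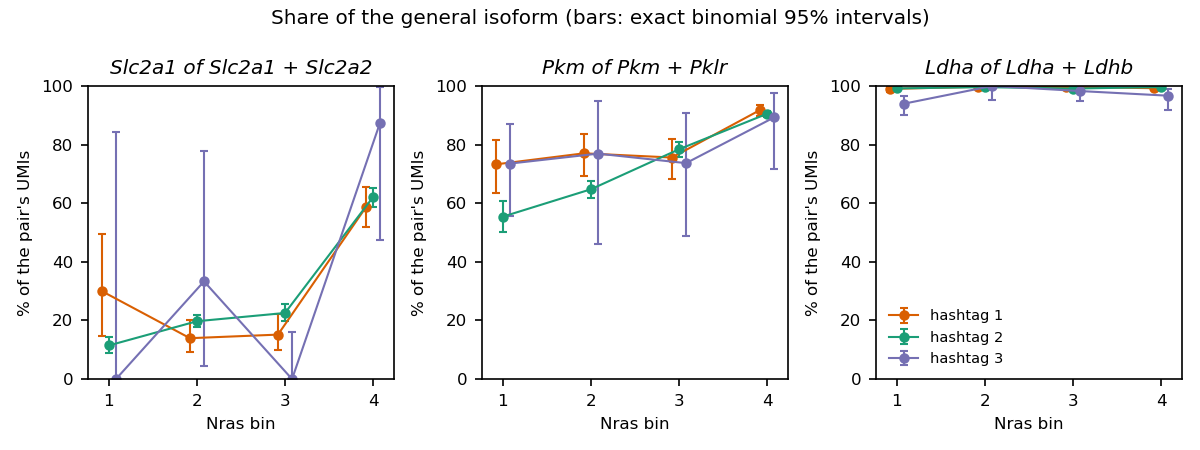
Percentage of a pair's UMIs that came from the general form (vertical axes) in the 4 Nras bins (horizontal axes), with 1 line per mouse and exact binomial 95% intervals. In hashtags 1 and 2 the shares of Slc2a1 and Pkm are highest in bin 4, the share of Ldha stays near 100%, and hashtag 3 has wide intervals from few UMIs.

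The rest of the pathway was counted over lists of named genes. Of 74 further genes of glycolysis, its regulators, pyruvate use, gluconeogenesis, glycogen, glucose transport, transcription factors and hypoxia targets, 56 were tested. Of these 3 were higher in the highest than in the lowest bin, 14 lower and 39 did not pass. The median change over the 56 was -0.43 beside -0.04 over all genes tested. At matched depth 61 were tested, 3 were higher and 18 lower, with medians of -0.21 and 0.00415.

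Of 17 other glycolytic genes 13 were tested, 3 fell and 10 did not pass. Those that fell were Gckr with -1.32 (adjusted p = 0.0018), Pfkp, the platelet phosphofructokinase, with -1.59 (adjusted p = 0.033), and Tpi1 with -0.75 (adjusted p = 0.0098). Pfkp had the opposite sign at matched depth, 0.76 (adjusted p = 0.52). Gapdh, which serves glycolysis in every tissue, gave -0.33 (adjusted p = 0.18).

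Of the 7 genes of gluconeogenesis 6 were tested, 1 rose and 1 fell. At matched depth 6 were tested, 0 rose and 4 fell. Fbp1, which reverses the phosphofructokinase step, fell by 1.95 (SE 0.30, adjusted p = 0.0010). G6pc, which releases free glucose from hepatocytes, gave -1.35 (adjusted p = 0.056) and passed at matched depth with -2.38 (adjusted p = 0.0012). G6pc3, the broadly expressed glucose-6-phosphatase, rose by 1.24 (SE 0.36, adjusted p = 0.030) and gave 0.86 at matched depth (adjusted p = 0.16).

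Of 7 glycogen genes 6 were tested, and 4 fell and 1 rose. Gys2, the liver glycogen synthase, fell by 2.90 (SE 0.35, adjusted p = 0.00035), Pygl, the liver glycogen phosphorylase, by 1.56 (adjusted p = 0.0017) and Ugp2, which makes UDP-glucose, by 1.07 (adjusted p = 0.0029). Pgm1, a phosphoglucomutase, rose by 1.21 (SE 0.26, adjusted p = 0.0061). Each of these 4 passed in the same direction at matched depth.

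Of 11 genes of pyruvate and lactate fate 8 were tested and 4 fell. Mpc2, a subunit of the mitochondrial pyruvate carrier, fell by 1.15 (adjusted p = 0.0036). Among 12 transcription factors Myc rose by 1.64 (SE 0.29, adjusted p = 0.0026) and Cebpa, a factor of hepatocyte identity, fell by 0.90 (adjusted p = 0.018). Hif1a, the hypoxia-inducible factor subunit, gave 0.22 (adjusted p = 0.51), and Hnf4a gave 0.17 (adjusted p = 0.60). Of 9 hypoxia targets 7 were tested, and Bnip3 was the only one that passed, with -1.17 (adjusted p = 0.0073). At matched depth Adm rose by 2.59 (adjusted p = 0.021) and Vegfa fell by 0.69 (adjusted p = 0.0039) as well, and Myc rose by 0.56 (adjusted p = 0.0499). Neither of the 2 tested regulators of fructose bisphosphate passed, nor did either of the 2 tested other glucose transporters.

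Pck1 is a gene of the periportal zone of the liver lobule, so genes of both zones were set beside it. Besides Pck1 itself, the periportal genes listed, Cps1, Ass1, Hal and Sds, were all lower in the highest bin, with changes from -2.68 to -1.48. Of all genes tested 10.5% passed as lower. Of the 5 pericentral genes Cyp2e1 and Rgn fell (-2.78 and -2.90) and Glul, Oat and Cyp1a2 did not pass. At matched depth Cps1, Ass1, Hal and Sds again passed as lower and Pck1 did not. There 3 of the 5 pericentral genes passed as lower, beside 9.27% of all genes tested.

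Markers of other cell types were counted in the same sums, because sorted barcodes can hold RNA of neighbouring cells. In the lowest bin the 8 endothelial markers summed to 347, 33.9 and 3419 CPM in hashtags 1, 2 and 3, and in the highest to 18.9, 15.6 and 1600, with only Stab2 at 0, in the highest bin of hashtag 1. The 8 dendritic cell markers summed to 355 to 1212 in the lowest and 364 to 505 in the highest bin, with Cd209a at 0 in both bins of hashtags 1 and 2. Siglech was also at 0 there except in the highest bin of hashtag 2. In hashtag 3, 4 of the 8 markers were at 0 in the lowest bin and 6 in the highest. The 6 cholangiocyte markers, which include Spp1 and Sox9, summed to 976 to 3333 in the lowest and 5102 to 14234 in the highest bin, with Cftr at 0 in every one of these sums. Krt19, Krt7 and Epcam were also at 0 in the lowest bin of hashtags 1 and 3. In the highest bin of hashtag 3, Krt7 and Epcam were at 0 as well. The 9 macrophage markers summed to at most 73.8 CPM in any of these sums, with Marco at 0 in 5 of the 6. The other lists, for T and NK, B, neutrophil, stellate and erythroid cells, summed to at most 60.4.

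Without clusters led by markers of other cell types, an alternative added after the data were seen, the same 5 members passed. Of all 8694 genes tested there, 1622 passed, 697 higher and 925 lower. Pkm rose by 1.94 (adjusted p = 7.2e-05) and Slc2a1 by 1.57 (adjusted p = 0.0018), and Slc2a2, Pklr and Pck1 gave -1.76, -0.93 and -2.30 (adjusted p = 0.016, 0.0083 and 0.0014). Removing every barcode with 3 or more UMIs of such markers left 8, 18 and 8 cells of hashtags 1, 2 and 3 in the highest bin, at 820, 643 and 514 Nras CPM. The markers counted were the endothelial, macrophage, T and NK, B, dendritic, neutrophil and erythroid lists, and deeper cells reach 3 UMIs more easily. In this remainder 4 members could be tested, none of which passed, and 1 of 2437 genes passed in all, so it says little about the members.

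Levels by cluster, from a clustering that left out the members, Nras and mVenus, showed where else these genes were found. A cluster of deep hepatocyte-like cells led by Fgg and Serpina3k held Slc2a2 at 80.4, Pkm at 23.4, Slc2a1 at 11.7 and Pck1 at 27.9 CPM. A cluster of equally deep cells led by Igfbp3, Sprr1a and Hmga2, with a median of 201 Nras CPM against 46.3, held Slc2a2 at 22.0, Pkm at 158, Slc2a1 at 27.8 and Pck1 at 4.15. This cluster could not be named from the marker lists. Pkm was also high in a cluster led by the sinusoidal endothelial genes Aqp1 and Clec4g (186) and in dendritic-like cells (172), and Hk2 was at 15.3 in the latter. Slc2a1 was at 0.666 and 5.49 in those clusters, below either of the deep hepatocyte clusters. Slc2a2 was at 5.66 and 2.86 there. The part of free RNA in these levels was not tested.

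Shallow hepatocyte barcodes differed from deep ones in the same genes. A cluster with a median of 1833 UMIs led by Bhmt and Car3 held Pck1 at 302, Ldha at 816 and Slc2a2 at 9.67 CPM. The cluster led by Gstm3 and Rgn (median 3243.5 UMIs), not named from the marker lists, held 81.2, 907 and 7.94. A hepatocyte cluster led by Slpi (median 4674) held 14.2, 443 and 11.3, with Pck1 below the deep hepatocyte-like cluster. In that order these clusters gave 56, 415 and 216 cells to the lowest bin. Their barcodes were mostly under the limit of 5000 UMIs. The shallow cells of the lowest bin had the signs of the Bhmt and Gstm3 clusters: high Pck1 and Ldha and low Slc2a2 in hashtags 1 and 3. The part of depth in the Pck1 and Ldha differences was not tested beyond the depth-matched fit and thinning. After thinning each cell to 5000 UMIs, Pck1 gave -1.27 (adjusted p = 0.0098) and Slc2a2 -2.17 (adjusted p = 0.0028). Ldha did not pass there. The bins were redrawn from the thinned Nras counts, and the lowest held 167, 687 and 62 cells of hashtags 1, 2 and 3. Before thinning these cells held Nras at 67.0, 60.7 and 42.2 CPM, so the groups differ from those of the main fit. Thinning evens out counts but does not change which barcodes were shallow.

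The G12V and D38A mice were not tested against each other, since there is 1 control mouse and the pairing of hashtags is given in conflicting ways. Over all bins, Slc2a1 was 17.8, 19.5 and 7.85 CPM in hashtags 1, 2 and 3. Pkm was 102, 84.1 and 64.6. Slc2a2 was 37.6, 46.4 and 24.4, and Pck1 21.4, 16.9 and 116. The hashtag 3 mouse, a G12V mouse in the deposited table and the D38A mouse in the methods, stood apart in Pck1 and Slc2a1. Its cells were shallow, and only 10 of them held 20000 to 60000 UMIs. In its lowest bin only 21 of 46 cells lay outside clusters led by markers of other cell types. In cells of that range Slc2a1 was 14.8, 18.9 and 17.3 CPM in hashtags 1, 2 and 3, with hashtag 3 between the others. Pck1 was 17.7, 20.98 and 4.94, so hashtag 3 was then the lowest instead of the highest. The hashtag 3 value came from 2 UMIs, with an exact Poisson interval of 0.598 to 17.8. That interval lay below the 19.5 to 22.6 of hashtag 2 and overlapped the 13.9 to 22.2 of hashtag 1. The parts of depth and of other cell types in these differences between mice were not tested. Over all depths hashtag 1, the D38A mouse of the deposited table, lay near hashtag 2 in each of the 4.

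Genes whose pattern over the 12 mouse by bin sums was most like that of the members were ranked among 6757 genes of at least 10 CPM by the correlation of log2(CPM + 1), centred within each mouse. Closest to the mean of the 5 general forms were 1110008P14Rik (r = 0.98), Arpc1b (0.98), Rpsa (0.97), Rack1 (0.97) and Psmd10 (0.97), which include an actin-nucleating subunit and proteins of the ribosome and proteasome. Closest to the mean of Slc2a2, Pklr and Pck1 were Csad (0.99), Rarres2 (0.98), Serpina1c (0.97), Pemt (0.97) and Cyp2c70 (0.97), most of them liver-enriched. The sums share libraries and depth, so these values are descriptions.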

How the data were processed

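Per the labels the authors aligned 10x Genomics 3′ reads to mm10 with Cell Ranger (2.1.1 in the submitters' processing notes, 3.0.2 in the matrix header) and deposited raw UMI counts per gene and barcode, and raw counts per hashtag. The strand setting is not given in the sources used here. From these, barcodes with at least 500 genes, 1000 UMIs and under 20% mitochondrial UMIs were kept, and mice were called with HTODemux (Seurat 5.3.0, positive quantile 0.99). Doublets within a mouse remain. A second Aldoa row was empty. UMIs of cells with at least 5000 UMIs were summed per mouse and Nras bin (at least 5 cells), without Nras and mVenus, and tested in edgeR 4.0.16 (TMM, filterByExpr, quasi-likelihood F-test, threshold 0.05) or DESeq2 1.42.0. Every mouse gives cells to each bin, so the mouse is the block. The fits were tested on simulated data. Hashtag sums covered 10108131, 53563380 and 1146363 UMIs. Clusters came from scanpy 1.11.5. Intervals are exact and cover counting error only. A few listed items are not reported here and were left out of the list counts, after the data were seen. Members and lists were chosen with earlier results of these data known. All 8 members are named everywhere, with Ldhb as a partner and up to 10 passing pathway genes per direction. Alternatives changed the test, filter, block, mice, depth, hepatocyte rule, hashtag rule and ranking.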

Additional observations from a re-analysis of the deposited data

Results flagged for a closer look

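In 8 results the mouse labelled D38A by one of the pairings moved one way and both other mice the opposite way. None of these differences was tested. With the deposited pairing (hashtag 1), Slc2a2 in the highest against the lowest bin was 0.13 on the log2 scale in the D38A mouse and -2.24 and -0.58 in the others. With the pairing in the methods (hashtag 3), Aldoa was -0.76 for that comparison against 0.06 and 0.66. Against the third bin, Pck1 was 0.067 in hashtag 3 against -1.65 and -0.998, and Hk2, on 0 and 1 UMIs, was -2.07 against 0.13 and 0.21. Between the lower bins, Hk2 in the second against the lowest was -0.72 in hashtag 1 against 0.13 and 2.57. In the third against the second bin, hashtag 3 gave -0.49 for Hk2 against 0.31 and 0.56, -0.13 for Pkm against 0.016 and 0.76, and 1.72 for Slc2a2 against -0.40 and -0.31. These per-mouse values are differences of log2(CPM + 1).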

How the results depend on the processing

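In the highest against the lowest bin, 1624 genes passed. The count was 397 with no replicate block, that is, without pairing by mouse, 426 with at least 5% hepatocyte marker UMIs, 696 after thinning, 1 without barcodes of 3 or more UMIs of other cell types' markers and 126 with the G12V mice of the deposited table, and leaving out each mouse gave 126 to 1773. For the highest against the third bin (393), it was 0 with no replicate block, 128 with at least 5% marker UMIs, 602 with at least 10000 UMIs per cell, 876 in cells of 20000 to 60000 UMIs, 795 with the fixed hashtag rule, 964 with no filter on low counts, 0 ranked by mVenus, 0 without barcodes of other cell types' markers and 0 with the G12V mice of the deposited table, and 0 to 555 leaving out each mouse. For the second against the lowest bin (0), DESeq2 gave 206, no filter 512, the depth range 17 and the fixed rule 80. For the third against the second (0), no filter gave 25, 5% marker UMIs 5, the fixed rule 2 and mVenus 46. Against the lowest bin, leaving out each mouse moved Aldoa between -0.23 and 0.33 and Slc2a2 between -2.11 and 0.18. Against the third bin Aldoa was -0.017 without barcodes of other markers, and Ldha was 0.20 with at least 10000 UMIs, 0.11 in the depth range, 0.00467 with quartiles within each mouse and 0.00987 with the G12V mice of the methods (leaving out each mouse, -0.30 to 0.00987). The causes were not tested. Slc2a1, Pkm, Pklr and Pck1 kept their direction in every alternative that could be fitted against the lowest bin. Their ranges were 0.67 to 2.29, 0.99 to 3.43, -0.99 to -0.59 and -2.66 to -0.31, and 5, 4, 5 and 6 alternatives lost the call. The fits with G12V mice alone are the same as those without hashtag 1 or 3. Counts of alternatives here and above therefore repeat these fits. Pklr could not be tested after thinning. Hashtag 3, with 1146363 UMIs, limits the precision.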

Other observations

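Slc2a2 was not confined to hepatocyte-like clusters. In a cholangiocyte-like cluster of 26 barcodes led by Epcam, Fxyd3 and Dcdc2a it stood at 179 CPM (exact Poisson 95% interval 120 to 256, from 29 UMIs), above the 80.4 of the deep hepatocyte-like cluster. Aldoa was at 240 CPM in the same barcodes. The barcodes that could be assigned came from all 3 mice, and no test was made.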
